A study of Mus musculus with 2 samples.

Results

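Aminoacyl-tRNA synthetases are the enzymes that join each amino acid to its transfer RNA, and their genes were followed here in mouse mammary basal cells with and without a short hairpin RNA against Cdk14. The genes were chosen by symbol from a list of 36 names, 20 for cytosolic enzymes and 16 for mitochondrial enzymes, whose symbols end in 2. Of these, 33 of the 15239 genes in the deposited table were found, 20 cytosolic and 13 mitochondrial, and Aars2, Pars2 and Yars2 were not analysed here. A level is given in FPKM, the fragments of a gene per kilobase of its exons and scaled to the library's total, so levels can be compared between genes. Averaged over the libraries, 1 FPKM or more was reached by 30 of the 33, all 20 cytosolic and 10 mitochondrial genes, and these are called measured.

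The study sequenced the messenger RNA of mammary basal cells, labelled as normal mammary gland, in 2 libraries. The first carried a scrambled hairpin (Scramble control) and the second a hairpin against Cdk14 (Cdk14-sh), a cyclin-dependent kinase that acts in Wnt signalling. The labels give no strain, age, hairpin sequence or number of animals, the series' design text names the human line MDA-MB-231, and the extraction protocol speaks of retinas, while all identifiers in the table are mouse genes. With 1 library in each group there was no replicate, so no test was made, and every difference below is between these 2 libraries.

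Library totals were inferred from the values, with the commonest low product of FPKM and exonic length taken as 2 reads. They came to 10186924 reads (Scramble control) and 10177185 reads (Cdk14-sh). Cdk14 itself was at 2.06 FPKM in Scramble control and 0.713 FPKM in Cdk14-sh, a ratio of 0.345 with a 95% interval of 0.259 to 0.457. Such intervals, written after each ratio, are exact (Clopper-Pearson) and cover counting error only. All 8 basal markers were measured (from Krt14 to Oxtr), and their summed level was 4268 FPKM in Scramble control and 3009 FPKM in Cdk14-sh, although 3 of them, Trp63 (2.84-fold), Krt5 (1.87-fold) and Oxtr (1.45-fold), were higher in Cdk14-sh. Summed markers of other cells moved too: 5 of 6 endothelial genes went from 131 to 7.61 FPKM, and 5 of 6 immune genes, among them Ptprc at 0.482 and 0.247 FPKM, from 79.6 to 354.5 FPKM. The 6 luminal genes summed to 1300 and 774.5 FPKM, with Krt18 at 382 and 106 FPKM and Krt8 at 456 and 222.5 FPKM. Against that sum, Krt19 (2.09-fold), Cd24a (1.4-fold) and Prlr (0.154 and 1.77 FPKM) were higher in Cdk14-sh. The listed fibroblast genes, 2 of 4, summed to 108 and 49.0 FPKM. Of these, Dcn was lower (104 and 41.2 FPKM) and Col1a1 higher (3.92 and 7.8 FPKM) in Cdk14-sh. Of 6 retina genes, Gnat1 alone was listed, at 1.88 and 0.130 FPKM. The part of these other cells in the synthetase values was not tested, and in bulk RNA fewer cells of a type cannot be told apart from less RNA per cell.

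As background, each synthetase recognises its amino acid and the matching tRNAs, and the cytosol and the mitochondrion mostly use separate enzymes encoded by separate nuclear genes. Glycyl- and lysyl-tRNA synthetase are exceptions, since Gars and Kars each encode both forms. Several cytosolic enzymes sit together in the multisynthetase complex, held by the scaffold proteins Aimp1, Aimp2 and Eef1e1. Many cytosolic synthetase genes are known targets of Atf4, the transcription factor that cells translate when amino acids run short or the endoplasmic reticulum is stressed.

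The cytosolic enzymes moved in both directions, with tyrosyl-, cysteinyl-, histidyl- and tryptophanyl-tRNA synthetase genes higher in Cdk14-sh and the aspartyl enzyme gene lower. On the scale of log2(FPKM + 1), 4 of the 20 cytosolic and 1 of the 10 measured mitochondrial genes passed a 2-fold limit upwards in Cdk14-sh, as did 14.2% of all 12830 measured genes. Past the same limit downwards were 1 cytosolic and 1 mitochondrial gene, as were 13.5% of all measured genes. The share of higher synthetase genes, 5 of 30, was thus near the background, and that of lower ones, 2 of 30, under it. The median log2 ratio was 0.16 over the cytosolic genes and 0.27 over the mitochondrial genes, beside 0.02 over all measured genes, whose log2 ratios had an SD of 1.02. The SD over the 30 synthetase genes was 0.78.

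**Figure D1:**
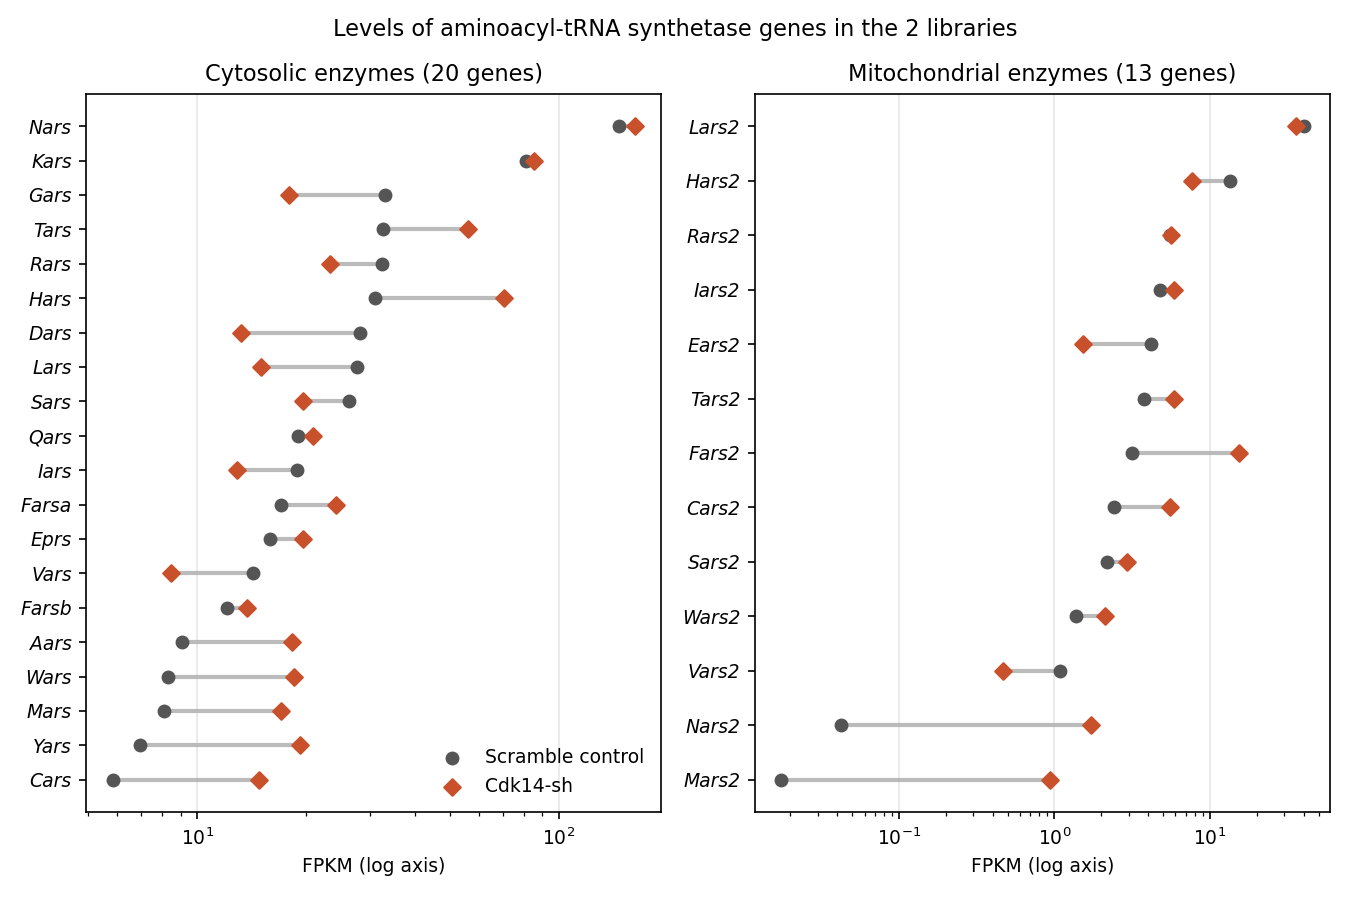
Level of each listed synthetase gene in FPKM (log axis) in Scramble control (grey circles) and Cdk14-sh (red diamonds), 1 library each, with cytosolic enzymes on the left and mitochondrial enzymes on the right, ordered by the control level. Nars is the highest gene in both libraries, at 147 and 162 FPKM, and the 5 cytosolic genes lowest in Scramble control, Cars to Aars, all sit higher in Cdk14-sh.

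Levels spanned a wide range among the enzymes. Nars, the asparaginyl enzyme, was the highest cytosolic gene at 147 FPKM in Scramble control and 162 FPKM in Cdk14-sh, and Kars, the lysyl enzyme of both compartments, came second at 80.9 and 85.4 FPKM. Lars2, the mitochondrial leucyl enzyme, was the highest mitochondrial gene, at 40.0 and 35.8 FPKM. The other measured mitochondrial genes lay between 1.37 and 13.4 FPKM in Scramble control. Summed over the listed genes, cytosolic enzymes came to 574 FPKM in Scramble control and 651 FPKM in Cdk14-sh, and mitochondrial enzymes to 82.0 and 91.4 FPKM. Both sums were thus a little higher in Cdk14-sh, 1.13-fold for the cytosolic and 1.11-fold for the mitochondrial enzymes.

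By counting error alone, most synthetase genes differed between the libraries. The interval of the ratio lay above 1 for 15 of the 30 measured genes (35.8% of all measured genes with a known exonic length) and below 1 for 10 (33.2% of them). It included 1 for the other 5, which were Kars, Qars, Farsb, Rars2 and Sars2. For the latter, at 2.16 and 2.91 FPKM (ratio 1.34, 0.858 to 2.12), the depth could not show a difference of that size.

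**Figure D2:**
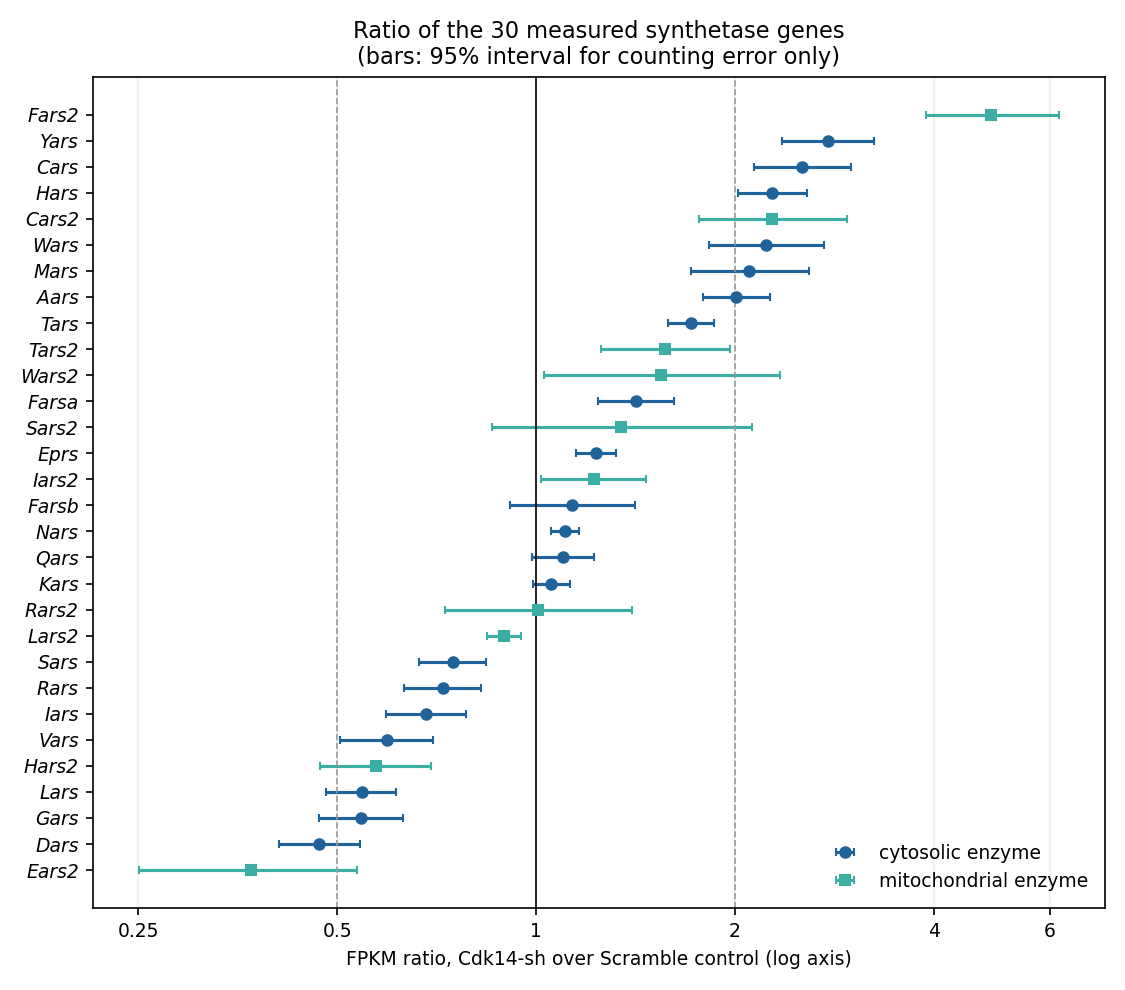
Ratio of FPKM in Cdk14-sh over Scramble control (log axis) for the 30 measured synthetase genes, with 95% intervals for counting error only; dashed lines mark ratios of 0.5 and 2. Fars2 stands at the top with 4.89 and Ears2 at the bottom with 0.370, and cytosolic and mitochondrial enzymes are found on both sides of 1.

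Among cytosolic enzymes outside the complex, Yars had the highest ratio. Yars (ENSMUSG00000028811, plus strand of chromosome 4 from 129189760 to 129219607, GRCm38) charges tyrosine, and was at 6.97 FPKM in Scramble control and 19.3 FPKM in Cdk14-sh. That is 2.76-fold higher (2.36 to 3.25), and 8.61% of all measured genes had a log2 ratio as high or higher. Cars (ENSMUSG00000010755, minus strand of chromosome 7 from 143557230 to 143600090), the cysteinyl enzyme, was at 5.84 and 14.8 FPKM, 2.53-fold higher (2.14 to 3.002). These 2 genes thus went from the lowest cytosolic levels in Scramble control to levels near those of Farsb and Eprs in Cdk14-sh.

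Hars, the histidyl enzyme, was at 31.0 FPKM in Scramble control and 70.6 FPKM in Cdk14-sh, 2.28-fold higher (2.02 to 2.57). Wars, the tryptophanyl enzyme, which interferon gamma induces in many cells, was at 8.32 and 18.6 FPKM, 2.23-fold higher (1.83 to 2.73). Aars, the alanyl enzyme, was at 9.08 and 18.3 FPKM, 2.01-fold higher (1.79 to 2.26), which came to 0.93 on the log2(FPKM + 1) scale. In Aars, 14.3% of exonic bases are shared with Exosc6 on the same strand, so some of its reads are uncertain. The threonyl enzyme gene Tars was at 32.7 and 56.1 FPKM, 1.72-fold higher (1.59 to 1.86).

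Phenylalanyl-tRNA synthetase of the cytosol is built of alpha and beta subunits in equal number, encoded by Farsa and Farsb. Farsa was at 17.0 and 24.1 FPKM, 1.42-fold higher (1.24 to 1.62), and Farsb at 12.1 and 13.7 FPKM, with a ratio of 1.13 (0.913 to 1.41). The intervals of the subunit genes overlap, so an unequal difference was not detectable at this depth. Nars, the most abundant of the family, had a ratio of 1.11 (1.05 to 1.16), and its log2 ratio of 0.14 was -0.05 after a correction for exonic length.

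On the lower side were 3 genes outside the complex. Gars, which encodes the glycyl enzyme of cytosol and mitochondrion, was at 33.1 FPKM in Scramble control and 17.99 FPKM in Cdk14-sh, 1.84-fold lower (1.59 to 2.13). Vars, the valyl enzyme, which associates with elongation factor 1, was at 14.3 and 8.48 FPKM, 1.68-fold lower (1.43 to 1.98). Sars, the seryl enzyme, was at 26.3 and 19.7 FPKM, 1.34-fold lower (1.19 to 1.502). None of the 3 passed the 2-fold limit.

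Among the 8 enzymes of the multisynthetase complex, intervals lay below 1 for 4 genes, above 1 for 2 and on both sides of it for 2. Dars, the aspartyl enzyme (ENSMUSG00000026356, minus strand of chromosome 1 from 128363707 to 128417368), was the lowest of all cytosolic genes by ratio, at 28.2 FPKM in Scramble control and 13.2 FPKM in Cdk14-sh, 2.13-fold lower (1.85 to 2.45). Lars, the leucyl enzyme, which also takes part in leucine sensing, was at 27.6 and 15.0 FPKM, 1.84-fold lower (1.63 to 2.08). Iars, the isoleucyl enzyme, was at 18.9 and 12.9 FPKM, 1.47-fold lower (1.28 to 1.69). In Iars, 7.15% of 50-base stretches also occur in another gene model, Gm4849, and could share reads with it. Rars, the arginyl enzyme, was at 32.3 and 23.3 FPKM, 1.39-fold lower (1.21 to 1.58).

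The remaining members of the complex were level or higher. Mars, the methionyl enzyme, which also charges the initiator tRNA, was at 8.12 FPKM in Scramble control and 17.1 FPKM in Cdk14-sh, 2.10-fold higher (1.72 to 2.59), with a log2 ratio of 0.99 just under the limit of 1. Eprs, a fused enzyme for glutamate and proline, was at 15.9 and 19.6 FPKM, 1.23-fold higher (1.15 to 1.32). Qars, the glutaminyl enzyme, was at 19.0 and 20.8 FPKM (ratio 1.10, 0.985 to 1.22), and Kars had a ratio of 1.06 (0.990 to 1.13). Of the scaffold genes, Aimp1 was higher and the others were nearer to 1: Aimp1 was at 4.17 and 6.04 FPKM (ratio 1.45, 1.14 to 1.84), Aimp2 at 35.2 and 37.2 FPKM (1.06, 0.898 to 1.24) and Eef1e1 at 82.2 and 74.4 FPKM (0.905, 0.837 to 0.978).

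As lists, the 8 complex enzymes had a median log2 ratio of -0.19, with 4 below 0, none at least 2-fold higher and 1, Dars, at least 2-fold lower. The 12 cytosolic enzymes outside it had a median of 0.62, with 9 above 0 (51.4% of all measured genes were), 4 at least 2-fold higher (14.2% of all) and none at least 2-fold lower (13.5% of all). The medians differed by 0.81, and by 0.62 to 0.83 over 11 alternative settings, but with 1 library a group this difference has no test. Several of these settings could hardly alter it, since filters left both lists whole and rescaling the libraries moved both medians nearly alike. The range therefore rests on other pseudocounts, the mean in place of the median and the correction for exonic length. By catalytic class, the median was 0.19 over 16 class I genes and 0.28 over 15 class II genes, with Eprs in both. The classes thus lay closer together than the lists split by complex.

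Because Atf4 acts on many synthetase genes, the C/EBP-ATF response element, written TGATGNAAN, was looked for on either strand in the RefSeq promoters (GRCm38.p6) of the listed genes, from 250 bases before to 50 bases after the start. Promoters were at hand for 25 of the 33 genes. The motif was found in 5 of 13 cytosolic promoters and in 0 of 12 mitochondrial promoters, where 3.95% of all 32851 promoters held it. A match in each of the 5 is shown with 10 or 11 flanking bases, on the strand that reads TGATG and with the motif in capitals, because these genes shared the motif but not the direction of their difference.
Aars: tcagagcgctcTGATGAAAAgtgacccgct
Yars: cgagctcagcTGATGCAACccgacgggact
Tars: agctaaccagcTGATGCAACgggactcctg
Gars: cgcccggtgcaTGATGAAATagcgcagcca
Iars: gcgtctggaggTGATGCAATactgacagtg

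These stretches lie at chr8:111033840-111033869 (Aars, minus strand), chr4:129189896-129189925 (Yars, plus), chr15:11399655-11399684 (Tars, plus), chr6:55037960-55037989 (Gars, minus) and chr13:49682126-49682155 (Iars, minus). On the gene's own strand, the match shown begins 31 bases upstream of the start in Gars, 16 upstream in Tars, 3 downstream in Yars, 6 downstream in Iars and 8 downstream in Aars. Of these 5 genes, Yars, Aars and Tars were higher in Cdk14-sh, with log2 ratios of 1.35, 0.93 and 0.76, while Gars (-0.84) and Iars (-0.52) were lower. The 8 cytosolic promoters without the motif belonged to genes from -1.04 (Dars) to 0.99 (Mars), 6 of them above 0. Cytosolic genes without a promoter at hand, among them Cars (1.21), Hars (1.16) and Wars (1.07), were not searched. The upper end of that range therefore holds only for genes with a promoter. A match is a description of these letters, not of binding.

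Atf4 and genes of the amino acid response were compared as a list of their own. Its median log2 ratio was 0.25 over 34 measured genes, with 8 past the 2-fold limit upwards and 2 downwards, beside 14.2% and 13.5% of all measured genes. On the log2(FPKM + 1) scale the highest were Sesn2, which encodes a leucine-binding inhibitor of mTORC1 (2.54 FPKM in Scramble control and 17.9 in Cdk14-sh, 7.05-fold higher, 5.15 to 9.86), Psat1 of serine synthesis (6.51 and 25.6, 3.94-fold, 3.27 to 4.77) and Cth of cysteine synthesis (1.86 and 7.43, 3.99-fold, 2.58 to 6.35). At the low end were the glutamine transporter gene Slc1a5 (47.8 and 14.3, 3.34-fold lower, 2.93 to 3.81), the stress gene Nupr1 (20.1 and 9.18, 2.19-fold lower, 1.75 to 2.74) and the glycine transporter gene Slc6a9 (2.16 and 0.637, 3.39-fold lower, 1.94 to 6.26). The following were named after their values were seen. Stc2, which encodes the secreted glycoprotein stanniocalcin 2, had the highest FPKM ratio of the list, 26.0 (6.85 to 221), from 4 and 104 reads (0.0759 and 1.98 FPKM). Atf4 was at 136 and 219 FPKM, 1.61-fold higher (1.51 to 1.71). The serine and folate genes Phgdh (9.003 and 19.3 FPKM) and Mthfd2 (11.9 and 28.1 FPKM) were higher, at ratios of 2.14 and 2.36. The asparagine synthetase gene Asns was at 23.7 and 29.1 FPKM (1.23, 1.06 to 1.42), the glutathione-degrading enzyme gene Chac1 at 19.3 and 18.4 FPKM (0.951, 0.757 to 1.19) and the stress transcription factor gene Atf3 at 286 and 150 FPKM (0.523, 0.493 to 0.556). Like the synthetases, the amino acid response genes therefore lay on both sides of 1.

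**Figure D3:**
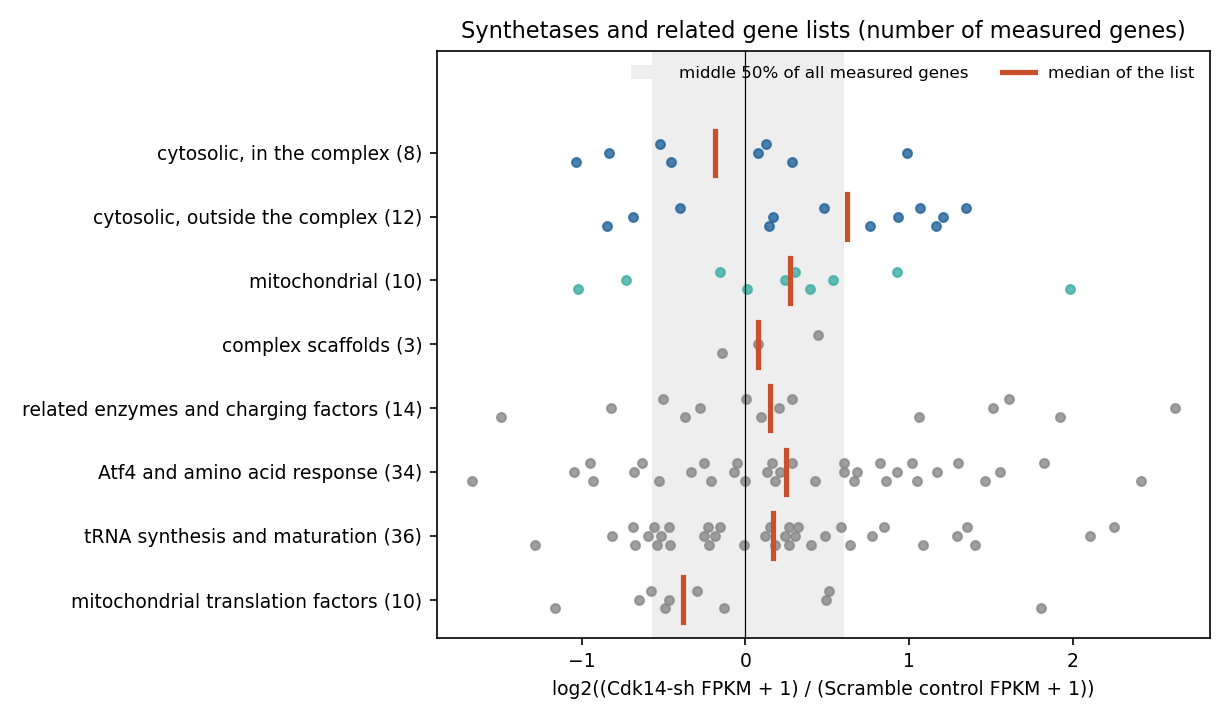
Log2 ratio of FPKM + 1 in Cdk14-sh over Scramble control for each measured gene (points) of the synthetase groups and the related lists, with the median of each list (red bar) and the middle 50% of all measured genes (grey band, -0.57 to 0.60). The median of the 12 cytosolic enzymes outside the complex is the highest of those drawn, at 0.62, and that of the mitochondrial translation factors the lowest, at -0.38.

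By ratio, both the highest and the lowest of the 30 measured genes encode mitochondrial enzymes. Fars2, the mitochondrial phenylalanyl enzyme (ENSMUSG00000021420, plus strand of chromosome 13 from 36117412 to 36726280), was at 3.14 FPKM in Scramble control and 15.4 FPKM in Cdk14-sh, 4.89-fold higher (3.90 to 6.18). Its log2 ratio of 1.98 was reached by 3.34% of all measured genes. In Fars2, 10.7% of exonic bases are shared with Lyrm4 and Nrn1 of the other strand, and the use of strand in counting is not stated in the sources at hand. Cars2, the cysteinyl enzyme, was at 2.41 and 5.50 FPKM, 2.28-fold higher (1.77 to 2.96).

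Tars2, the threonyl enzyme, was at 3.74 and 5.87 FPKM, 1.57-fold higher (1.26 to 1.97), and Wars2, the tryptophanyl enzyme, at 1.37 and 2.12 FPKM, 1.54-fold higher (1.03 to 2.34). Iars2, the isoleucyl enzyme, was at 4.79 and 5.86 FPKM, 1.22-fold higher (1.02 to 1.47), though 24.2% of its exonic bases also belong to genes of the other strand. Rars2, the arginyl enzyme, was at 5.56 and 5.603 FPKM, with a ratio of 1.01 (0.728 to 1.39). These 4 ratios and that of Sars2 thus lay above 1 by less than 2-fold, with intervals that include 1 for Rars2 and Sars2.

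On the lower side stood Ears2, the glutamyl enzyme (ENSMUSG00000030871, minus strand of chromosome 7 from 122037213 to 122067263), at 4.15 FPKM in Scramble control and 1.54 FPKM in Cdk14-sh, 2.71-fold lower (1.87 to 3.99). Hars2, the histidyl enzyme, was at 13.4 and 7.69 FPKM, 1.75-fold lower (1.44 to 2.13), and Lars2 was 1.12-fold lower (1.05 to 1.19). The 3 listed genes with a mean under 1 FPKM were Mars2, Nars2 and Vars2. Mars2, the methionyl enzyme, was at 0.0174 and 0.9396 FPKM, from 2 and 108 reads, with an interval of the ratio of 9.30 to 2174. Nars2, the asparaginyl enzyme, was at 0.0423 and 1.72 FPKM, from 3 and 122 reads (9.14 to 577). Both rest on very few reads in the control library. Vars2, the valyl enzyme, was at 1.08 and 0.468 FPKM, 2.31-fold lower (1.17 to 4.82).

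Glutamate is also loaded by Ears2 onto the mitochondrial tRNA for glutamine, and an amidotransferase built of Qrsl1, Gatb and Gatc then converts it. Among these partners Gatc was at 0.219 and 6.51 FPKM (from 4 and 119 reads, 29.8-fold higher, 7.89 to 252) and, named after their values were seen, Qrsl1 at 0.962 and 3.09 FPKM (3.21-fold higher, 1.89 to 5.70) and Gatb at 3.75 and 3.75 FPKM (ratio 1.00, 0.728 to 1.38). So Ears2 was lower while none of the amidotransferase genes was.

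The comparison of cytosolic with mitochondrial enzymes gave no stable order of the lists. The cytosolic median was 0.12 below the mitochondrial median on the log2 scale (a difference of -0.12), but it was 0.15 above it among genes averaging 5 FPKM or more and 0.60 above it from 10 FPKM on, where few mitochondrial genes were left. Of 11 cytosolic and mitochondrial pairs with both genes measured, covering 10 amino acids, the cytosolic log2 ratio was the higher in 5 and the lower in 6. The median difference over pairs was -0.46. In 7 of the 11 pairs the counting intervals of the ratios did not overlap. The share among other gene pairs was not computed, so this count cannot be read as a trait of the enzyme pairs. Intervals above 1 were found for 35.8% and below 1 for 33.2% of all measured genes with a known exonic length.

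In 3 of the pairs the enzymes lay on opposite sides of 1 by their intervals, those of histidine, glutamate and isoleucine. For this count too, the share among other gene pairs was not computed. For histidine the cytosolic gene exceeded the mitochondrial gene 2.30-fold in Scramble control and 9.17-fold in Cdk14-sh, with log2 ratios of 1.16 for Hars and -0.73 for Hars2. The starts of Hars and Hars2 lie 197 bases apart on opposite strands of chromosome 18, with their first exons overlapping, and 7.97% of the exonic bases of Hars and 4.56% of those of Hars2 are shared. For glutamate the level of Eprs over Ears2 was 3.83 in Scramble control and 12.8 in Cdk14-sh. For isoleucine the order was the reverse, with Iars lower and Iars2 higher, and the level of Iars over Iars2 was 3.95 and 2.20.

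Phenylalanine had the widest difference towards the mitochondrial enzyme. Farsa exceeded Fars2 5.42-fold in Scramble control and 1.57-fold in Cdk14-sh, and Farsb over Fars2 was 3.85 and 0.894, so that Fars2 passed Farsb in Cdk14-sh. Leucine was the amino acid whose mitochondrial gene was the higher in both libraries, with Lars over Lars2 at 0.690 and 0.420. Cysteine, threonine and tryptophan had both enzymes higher in Cdk14-sh, with intervals that overlap within each of these pairs. For serine and leucine, the cytosolic gene had the lower ratio, and the intervals did not overlap, while for arginine they did.

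**Figure D4:**
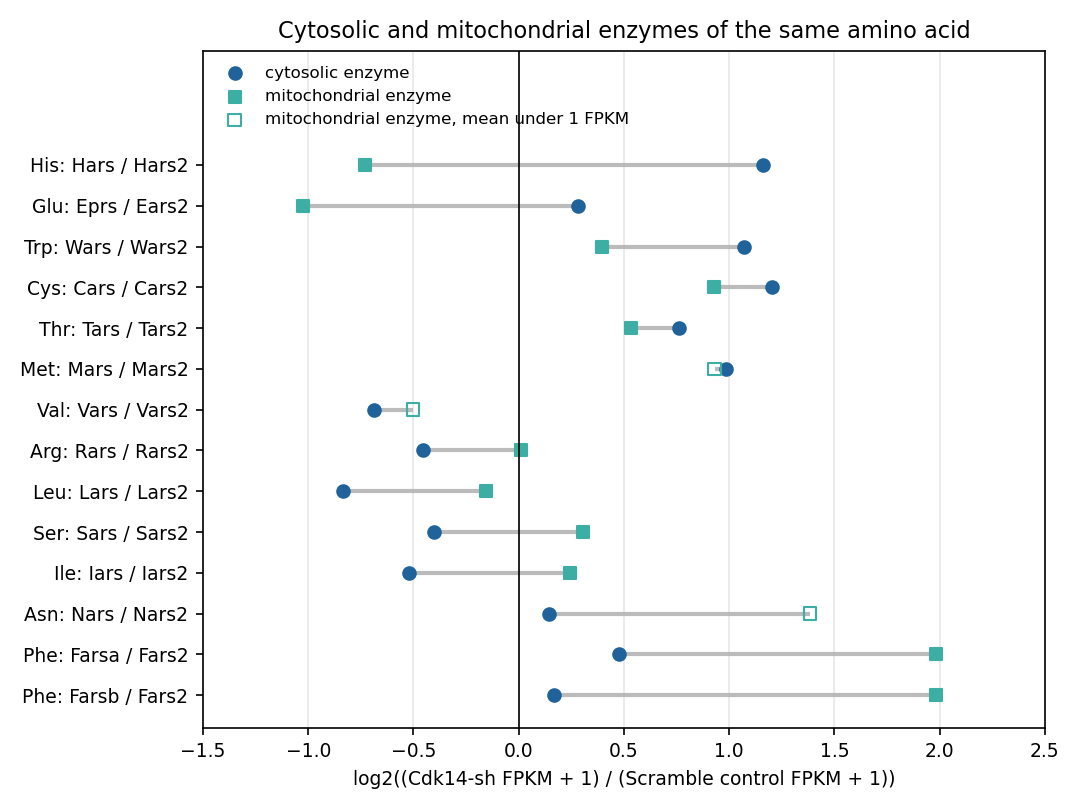
Log2 ratio of FPKM + 1 in Cdk14-sh over Scramble control for the cytosolic (circles) and the mitochondrial (squares) enzyme of each amino acid, ordered by their difference; open squares mark genes with a mean under 1 FPKM. Histidine (1.16 and -0.73) stands at the top and phenylalanine, whose mitochondrial gene is at 1.98, at the bottom.

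Genes that make tRNAs ready for charging were on both sides as well. Of 36 measured genes of tRNA synthesis and maturation, 6 passed the 2-fold limit upwards and 1 downwards, with a median of 0.17, so that the share upwards was near the 14.2% of all measured genes and the share downwards under their 13.5%. On the log2(FPKM + 1) scale the highest were Gtf3c5, a subunit of the polymerase III factor TFIIIC (0.990 and 8.49 FPKM, 8.57-fold, 5.55 to 13.8), Pop4, a subunit of RNase P (0.931 and 7.31 FPKM, 7.86-fold, 4.45 to 15.1), and Rtcb, the tRNA splicing ligase (28.4 and 76.7 FPKM, 2.70-fold, 2.40 to 3.05). The lowest were Polr3a, the largest subunit of polymerase III (4.61 and 1.30 FPKM, 3.55-fold lower, 2.46 to 5.21), Elac2, which trims the 3' ends of tRNAs (11.2 and 5.90 FPKM, 1.89-fold lower, 1.48 to 2.42), and the polymerase III subunit gene Polr3e (8.58 and 4.95 FPKM, 1.73-fold lower, 1.39 to 2.17). Polymerase III subunits and the tRNA splicing ligase thus differed in direction.

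Related enzymes and charging factors had a median of 0.15 over 14 measured genes, with 5 past the 2-fold limit upwards (14.2% of all measured genes were) and 1 downwards (13.5%). Next to Gatc stood Sepsecs, which makes selenocysteine on its tRNA (0.183 and 3.48 FPKM, 19.0-fold higher, 8.74 to 50.4). The lowest were Prorsd1, a homologue of a bacterial editing domain (13.9 and 4.29 FPKM, 3.23-fold lower, 2.31 to 4.59), Mtfmt, which formylates the mitochondrial initiator tRNA (9.98 and 5.21 FPKM, 1.91-fold lower, 1.49 to 2.47), and the RNA-binding protein gene Ybx3 (40.6 and 28.4 FPKM, 1.43-fold lower, 1.26 to 1.62). This list had no stable direction, since its median was -0.43 among genes averaging 5 FPKM or more.

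The list of mitochondrial translation factors, with 10 measured genes, holds initiation, elongation, release and recycling factors and also the tRNA modification genes Gtpbp3 and Trit1. Its median was -0.38, with 7 genes below 0, as were 6229 of all 12830 measured genes. Past the 2-fold limit were 1 gene upwards (14.2% of all measured genes were) and 1 downwards (13.5%). The lowest were the ribosome recycling factor gene Mrrf (13.7 and 5.58 FPKM, 2.46-fold lower, 2.02 to 3.01) and the modification genes Gtpbp3 (3.20 and 1.68 FPKM, 1.91-fold lower) and Trit1 (5.55 and 3.39 FPKM, 1.64-fold lower). The highest were Mtrf1l, a release factor, with 2 and 90 reads (0.0602 and 2.71 FPKM, interval of the ratio 7.68 to 1818), the elongation factor gene Tufm (20.3 and 29.4 FPKM, 1.45-fold higher, 1.22 to 1.73) and its exchange factor gene Tsfm (2.03 and 3.27 FPKM, 1.61-fold higher, 1.00 to 2.63). Tufm alone of this list averaged 10 FPKM or more, and with a filter there the median became 0.51. The direction of this list was therefore not stable either.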

How the data were processed

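The deposited table gives FPKM values, per its file name, for 1 Scramble control and 1 Cdk14-sh library of mouse mammary basal cells. Per the submitters' processing notes, Bowtie 0.12.2 and featureCounts from Subread 1.5.1 were used; the notes list mm8 and GRCm38 as builds but not what each served for. The treatment of strand and of multiply mapped reads is not given in the sources used. Each column was matched to the title it abbreviates.

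Log2 ratios were computed as log2((Cdk14-sh + 1)/(Scramble control + 1)), over 12830 genes averaging 1 FPKM or more; a pseudocount of 1 understates differences of low genes, so fold values are ratios of FPKM without it. Reads were recovered from FPKM and GENCODE M21 (GRCm38) exonic length. For 79.1% of 15191 genes, and 28 of the 33 synthetase genes, they were multiples of 0.5 in both libraries (tolerance 0.01); those of Fars2, Hars, Lars, Nars and Tars are approximate. Recovered reads summed to 112% of the inferred Scramble control total. Intervals take 2 reads as 1 fragment. With 1 read as 1 fragment, intervals of the 30 measured synthetase genes lay above 1 for 17 in place of 15. They lay below 1 for 10 with either unit. The functions were tested on simulated data built with 2 reads to each fragment, so that test cannot check the unit of 2 reads. The members and lists, and the rule of naming all synthetase genes, Cdk14 and the 3 highest and 3 lowest measured genes of each related list, were chosen with earlier results of these data known; a few items under this rule are not reported here. Python 3.11.15, NumPy, pandas and SciPy 1.17.1 were used.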

Additional observations from a re-analysis of the deposited data

How the results depend on the processing

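No paired analysis was possible because each group holds 1 library, and for the same reason no library could be left out. Of 16 alternatives to the settings used, 12 give a cytosolic median log2 ratio, which stayed between 0.09 and 0.23. The mitochondrial median of 0.27 fell to -0.44 among genes averaging 10 FPKM or more, of which Lars2 and Hars2 alone are mitochondrial. The difference of the medians (-0.12) became 0.15 with a filter at 5 FPKM and 0.60 with a filter at 10 FPKM. The 5 genes at least 2-fold higher became 3 with a pseudocount of 5 and 7 with a pseudocount of 0.1. Their number was 6 with no filter, 6 after correction for exonic length and 4 with a filter at 10 FPKM. It was 8 with a longer mitochondrial list, 9 at a limit of 1.5-fold and 0 at 4-fold. The 2 genes at least 2-fold lower became 0 with a pseudocount of 5, 1 with a filter at 5 FPKM, 1 with a filter at 10 FPKM, 1 after correction for exonic length, 6 at 1.5-fold and 0 at 4-fold. Fewer or more genes measured or another limit accounts for the changes under filters and limits by construction. The cause of the other changes was not tested. Of the 30 measured genes, Nars and Rars2 changed the sign of their log2 ratio under an alternative, and 282 of 287 values of these genes kept theirs. That count holds many values whose sign was fixed: other pseudocounts, filters and summing rows that share a symbol cannot change it. Only rescaling the libraries and the correction for exonic length could do so. Mars2, Nars2 and Vars2 were not compared in this way. No synthetase gene shares its symbol with another row, so summing such rows changed no value of theirs. Depth limits the genes with under 100 reads in a library, whose intervals span more than 2-fold.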

Other observations

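Several synthetase genes start within 1000 bases of a protein-coding gene on the opposite strand, and these neighbours were looked at after the synthetase values were seen. Sars2 starts 172 bases from Mrps12, a mitochondrial ribosomal protein gene, which was at 7.36 FPKM in Scramble control and 17.2 FPKM in Cdk14-sh (2.34-fold higher, 1.59 to 3.49), while Sars2 had a ratio of 1.34. Rars2 starts 13 bases from Orc3, a gene of the origin recognition complex, which was at 9.84 and 4.89 FPKM (2.01-fold lower, 1.65 to 2.46), while Rars2 had a ratio of 1.01. Yars starts 33 bases from S100pbp (1.54 and 1.93 FPKM, ratio 1.26, 0.917 to 1.73), beside 2.76 for Yars. Fars2 and Lyrm4, a gene of iron-sulfur cluster assembly, overlap at their starts by 114 bases, and Lyrm4 was 1.44-fold higher (1.21 to 1.70), beside 4.89-fold for Fars2. Ears2 and Ubfd1 overlap by 88 bases, and Ubfd1 had a ratio of 0.841 (0.730 to 0.968) beside 0.370 for Ears2. Lyrm4 and Ubfd1 thus lay on the same side of 1 as the synthetase gene and nearer to 1, while in the other overlapping pair, Hars and Hars2, the ratios of 2.28 and 0.572 lay on opposite sides of 1. Kars starts 75 bases from the telomere protein gene Terf2ip, which was at 6.06 and 8.46 FPKM (1.40-fold higher, 1.13 to 1.73), beside 1.06 for Kars.

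The 5 cytosolic genes under 10 FPKM in Scramble control (Cars, Yars, Mars, Wars and Aars) were 2.01-fold to 2.76-fold higher in Cdk14-sh. Of the 9 cytosolic genes over 25 FPKM in Scramble control, 5 were lower in Cdk14-sh. The ratio of the highest to the lowest cytosolic level was 25.2 in Scramble control and 19.2 in Cdk14-sh. The control level enters both the grouping and the ratio here, so these counts are a description of the 2 libraries.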
